A study of Homo sapiens with 12 samples.

Results

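Histone genes were examined in polyA RNA of HCT116, a long-established colorectal carcinoma cell line of human origin. The genes were taken by name from the deposited tables, as every row whose symbol begins with HIST1H, HIST2H, HIST3H, HIST4H, H2AF or H3F3, or is H1F0 or H1FX. This gave 16 of 12756 genes, 6 with the HIST prefix, called replication-dependent here, and 10 others, called variant genes. RNA came from 12 libraries of cells harvested 48 hours after seeding, in 4 genotype groups of 3 labelled replicates: parental, AGO2_KO, ANKRD52_KO and ANKRD52;CSNK1A1_KO, the last a double knockout. All of them are HCT116, and each knockout was compared by the authors with the same parental libraries, so the comparisons share their controls. AGO2 is an Argonaute, the protein loaded with microRNAs, ANKRD52 belongs to the PP6 phosphatase as a regulatory subunit, and CSNK1A1 is the alpha form of casein kinase 1. The labels do not say whether a knockout line is 1 clone or whether replicates were separate cultures, so the spread behind each p-value is that among these libraries and may be technical. By its title the study concerns phosphorylation of Argonaute in silencing by microRNAs.

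Replication-dependent histone genes supply the bulk histones H1, H2A, H2B, H3 and H4 during S phase. Their messages normally end in a conserved stem-loop, bound by the protein SLBP and cut by the U7 small nuclear ribonucleoprotein, and carry no polyA tail. Selection on polyA therefore passes over most of them and keeps the transcripts that read through the stem-loop to a polyadenylation signal downstream, a form known from differentiating and resting cells. Variant histones such as H2A.Z, H3.3 and macroH2A are made throughout the cell cycle, mostly from polyadenylated messages, and replace the bulk histones at particular places in chromatin.

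GENCODE release 29 annotates 71 protein-coding genes with the HIST prefix, of which 6 had a row in the tables, and 14 variant genes, of which 10 had one. The other 65 and 4 genes are not analysed here, and the 6 cannot stand for the whole family. Of the 6 genes with a row, 4 (66.7%) had an annotated transcript with AATAAA or ATTAAA in its last 40 bases, against 19 of the 65 without a row (29.2%). A match to the histone stem-loop was annotated in the same 4 genes and in 28 of the 65 (43.1%). Among all 19902 protein-coding genes with a transcript sequence, 58 (0.291%) held such a match, 33 of them histone genes. For HIST1H1C and HIST1H2BK the annotated transcripts ended before any stem-loop or signal. Many of the 65 likewise had only a short transcript, such as HIST1H2AB (393 bases), HIST1H3A (411) and HIST1H4A (312), with neither match. The shares above thus describe how far the annotation reaches, and do not tell which genes have a stem-loop or a signal. Annotated ends depend on the release, and the annotation the authors counted on is not given in the sources used here.

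The stem-loops are shown because they mark where the tail-less message ends. Each is taken from a GENCODE release 29 transcript (GRCh38), 5′ to 3′, with the stem-loop in capitals and 5 flanking bases on each side in lower case.
HIST1H2AC: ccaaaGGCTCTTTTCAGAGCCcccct
HIST1H2BD: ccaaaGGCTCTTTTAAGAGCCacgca
HIST2H2BE: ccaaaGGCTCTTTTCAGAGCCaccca
HIST3H2A: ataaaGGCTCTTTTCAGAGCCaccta
H2AFX: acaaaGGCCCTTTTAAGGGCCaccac
HIST1H2AC, HIST2H2BE and HIST3H2A share the same capitals. The annotated HIST2H2BE transcript went on for 1729 bases after the stem-loop and had its signal 24 bases from the end. In HIST1H2AC the transcript went on for 1128 bases (signal 29 bases from the end), in HIST3H2A for 390 (24) and in H2AFX for 821 (20). The shorter of the HIST1H2BD transcripts, with 496 bases, went on for 39 bases, and its signal lay 27 bases from the end. The longer one, with 789 bases, had a signal 25 bases from its end and held no stem-loop match. H2AFX was the only variant gene in the tables with a stem-loop match, and all 10 variant genes had a signal at the end of at least 1 transcript.

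Promoter windows of RefSeq, from 250 bases before to 50 after the annotated start (GRCh38.p14), were available for 14 of the 16 genes, matched by their older symbols. The letters searched, on both strands, were CCAAT (the CCAAT box), then TATAAA (the TATA box), the octamer ATTTGCAT known from H2B promoters, and the E2F-type sequences TTTCGCG and TTTGGCG of S phase promoters. The CCAAT box was present in 6 of 6 replication-dependent and 5 of 8 variant promoters, against 35.7% of all 27305 promoters. TATAAA was present in 4 of 6 and 4 of 8, against 12%. The octamer was present in 3 of 6 and 1 of 8, against 1.8%. TTTCGCG was found in 1 of 6 and 0 of 8 (1.35% of all promoters), and TTTGGCG in 0 of either (1.92%). A match is a description of the letters, and no binding was measured. The promoters of HIST1H2BK, HIST2H2BE, HIST1H2AC, HIST1H1C and H2AFX are printed 5′ to 3′. Matches to the CCAAT box, TATA box and octamer on either strand are in capitals, overlapping matches as 1 run.
HIST1H2BK promoter (chr6:27146809-27147108, minus strand): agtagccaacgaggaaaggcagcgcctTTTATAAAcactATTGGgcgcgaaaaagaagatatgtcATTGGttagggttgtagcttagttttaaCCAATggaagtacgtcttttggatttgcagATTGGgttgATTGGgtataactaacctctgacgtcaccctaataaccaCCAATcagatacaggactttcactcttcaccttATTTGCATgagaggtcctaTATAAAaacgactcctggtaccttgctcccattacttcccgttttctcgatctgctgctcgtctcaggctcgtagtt
HIST2H2BE promoter (chr1:149886633-149886932, minus strand): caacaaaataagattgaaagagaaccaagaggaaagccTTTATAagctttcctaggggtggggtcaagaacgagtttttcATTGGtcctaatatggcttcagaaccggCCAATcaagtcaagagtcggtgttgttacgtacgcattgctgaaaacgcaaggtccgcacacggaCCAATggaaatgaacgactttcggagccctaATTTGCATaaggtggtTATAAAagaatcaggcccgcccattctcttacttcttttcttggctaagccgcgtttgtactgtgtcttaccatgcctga
HIST1H2AC promoter (chr6:26123922-26124221, plus strand): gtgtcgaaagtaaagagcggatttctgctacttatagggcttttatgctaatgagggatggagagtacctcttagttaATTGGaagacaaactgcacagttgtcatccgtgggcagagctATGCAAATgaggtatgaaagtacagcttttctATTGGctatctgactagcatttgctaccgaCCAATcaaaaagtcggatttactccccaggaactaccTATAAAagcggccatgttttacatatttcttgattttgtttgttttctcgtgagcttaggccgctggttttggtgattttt
HIST1H1C promoter (chr6:26056421-26056720, minus strand): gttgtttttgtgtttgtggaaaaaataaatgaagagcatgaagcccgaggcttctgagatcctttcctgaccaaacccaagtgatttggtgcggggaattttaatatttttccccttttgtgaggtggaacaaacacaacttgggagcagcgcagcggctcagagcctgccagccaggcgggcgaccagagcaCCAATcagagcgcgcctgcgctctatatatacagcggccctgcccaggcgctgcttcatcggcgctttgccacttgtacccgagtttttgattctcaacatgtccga
H2AFX promoter (chr11:119095416-119095715, minus strand): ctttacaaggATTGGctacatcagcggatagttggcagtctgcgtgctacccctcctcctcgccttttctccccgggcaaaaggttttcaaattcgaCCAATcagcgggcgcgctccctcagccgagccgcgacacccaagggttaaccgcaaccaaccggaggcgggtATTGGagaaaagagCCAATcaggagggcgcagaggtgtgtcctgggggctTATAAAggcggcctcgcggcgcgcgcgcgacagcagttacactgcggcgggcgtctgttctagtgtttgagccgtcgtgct
In HIST1H2BK and HIST2H2BE the octamer began 46 bases before the start on the plus strand, followed by TATAAA at 27 and 30 bases before it. HIST1H2AC held the octamer on the minus strand, 130 bases before its start. HIST1H1C had CCAAT 57 bases before its start and no match to TATAAA or the octamer. The promoter of the H2B gene HIST1H2BD, not printed, had matches to CCAAT and TATAAA and none to the octamer.

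**Figure D1:**
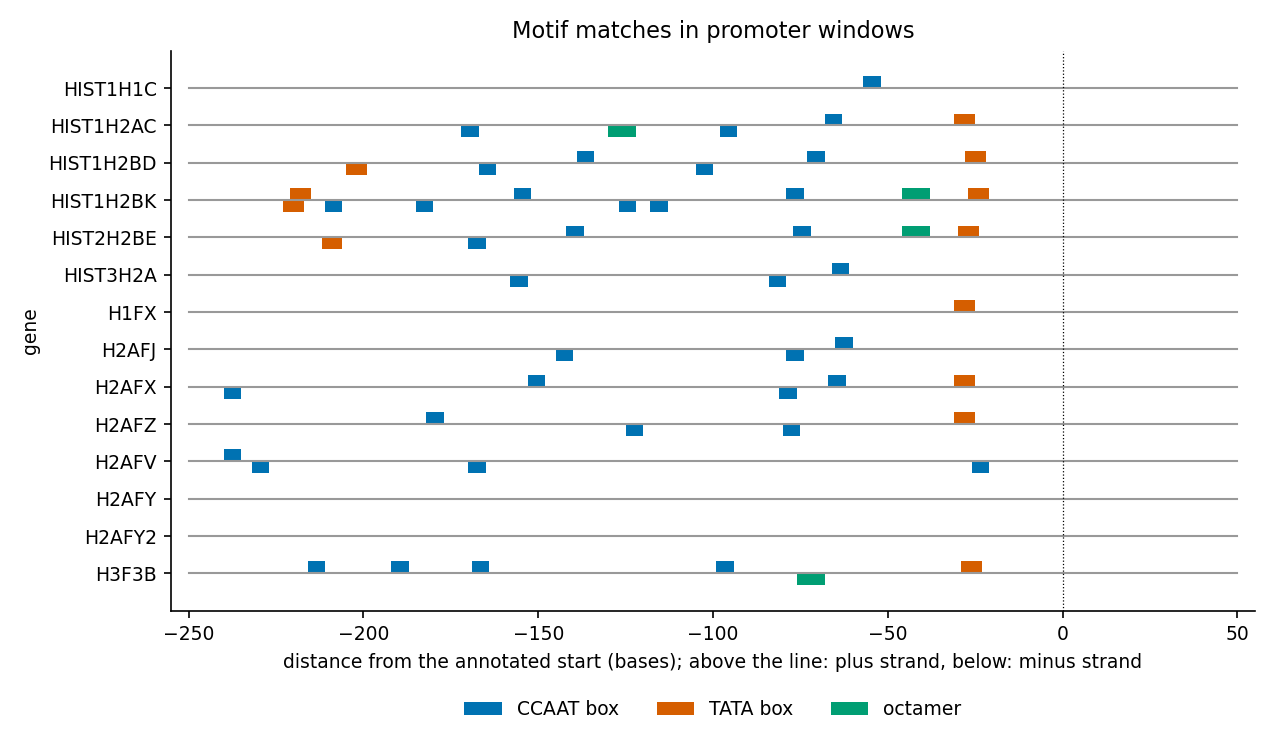
Matches to the CCAAT box, the TATA box and the octamer in the 14 promoter windows, by distance in bases from the annotated start, with plus-strand matches above each line and minus-strand matches below. The 6 replication-dependent genes are at the top, and each has at least 1 CCAAT match. H2AFY and H2AFY2 have none of the 3 motifs.

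The files give no value per library, so group levels in CPM, reads of a gene scaled to a common library size, were implied from the deposited mean log2 CPM and the 3 log2 fold changes, with 4 equal groups assumed. Errors of fold changes are approximate standard errors (SE), rebuilt by dividing the size of each log2 fold change by the root of its deposited likelihood ratio, with 3 libraries per group. A gene counts as called where the deposited adjusted p was under 0.05. Levels are not per length and are not compared between genes. The targeted genes stood as follows, per the authors' deposited tables: AGO2 fell by 1.07 on the log2 scale in its knockout (adjusted p = 0.0477), ANKRD52 had 0.03 in its knockout (adjusted p = 0.915) and fell by 0.65 in the double knockout, and CSNK1A1 fell by 2.42 in the double knockout. The level of ANKRD52 RNA thus does not check the label of the ANKRD52 knockout. In the AGO2 knockout ANKRD52 RNA rose by 0.85 (adjusted p = 8.78e-07), per the authors' deposited table. Of 7 epithelial markers all had a row, VIL1 being low with a mean log2 CPM of -0.40, and their summed implied level was 3316, 3421, 3182 and 8697 CPM in the parental line, the AGO2, the ANKRD52 and the double knockout. Most of that sum came from the keratin genes KRT8, KRT18 and KRT19, with KRT8 at 1530 CPM in the parental line and 4412 CPM in the double knockout. EPCAM stood at 349 and 381 CPM in these 2 groups and was not called in the double knockout. Of 7 markers of blood, connective tissue and vessel cells 3 had a row (LYZ, VWF and COL1A1, not PTPRC, CD3E, DCN or PECAM1), with a summed implied level between 12.6 and 13.4 CPM in the parental line and the single knockouts and 25.2 CPM in the double knockout. In the double knockout 6 of the 7 epithelial markers and 2 of these 3 were called higher, beside 22.9% of all genes. The 2 were LYZ and VWF, at 0.08 and 0.53 CPM in the parental line. In the ANKRD52 knockout EPCAM (-0.81, adjusted p = 0.000545) and CDH1 (-1.33, adjusted p = 0.0195) were called lower, per the authors' deposited table. There 0 of the 7 were called higher, beside 7.62% of all genes higher and 6.04% lower. The part of these markers in the histone values was not tested. Where a bulk level changes, a change in the share of cells in a given phase and a change in RNA per cell cannot be told apart.

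In the AGO2 knockout 4 of 6 replication-dependent genes rose and 0 fell, and 0 of 10 variant genes were called by the authors' edgeR test. Linker histone H1.2 (HIST1H1C), the H2A gene HIST1H2AC and the H2B genes HIST1H2BK and HIST2H2BE rose between 1.97-fold and 2.61-fold, per the authors' deposited table. Over all genes there, 3.38% were called higher and 2.72% lower. At an unadjusted p under 0.05 the replication-dependent genes numbered 5 in this comparison, 5 in that of ANKRD52 and 3 in the double knockout, all above the parental level. Over all genes that threshold was passed by 11.3%, 13.9% and 26.0% on the higher side. The median log2 fold change was 1.06 over the 6 replication-dependent genes, -0.16 over the 10 variant genes and 0.00 over all genes.

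HIST1H1C encodes linker histone H1.2, which binds the DNA between nucleosomes. Its implied level was 3.8 CPM in the parental line, 8.96 CPM in the AGO2 knockout, 5.93 CPM in the ANKRD52 knockout and 3.99 CPM in the double knockout. The AGO2 knockout was the highest group, and the double knockout stood close to the parental line. The log2 fold change in the AGO2 knockout was 1.24 (SE 0.22, adjusted p = 1.3e-05), per the authors' deposited table, larger than that of 99.5% of all genes. HIST1H2AC, a core H2A gene, stood at 1.48 CPM in the parental line, 3.26 CPM in the AGO2 knockout, 2.71 CPM in the ANKRD52 knockout and 1.73 CPM in the double knockout. Its order of groups was that of HIST1H1C, and its log2 fold change in the AGO2 knockout was 1.14 (SE 0.23, adjusted p = 0.00015), per the authors' deposited table.

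HIST1H2BK is a core H2B gene and had the smallest SE of the 6 replication-dependent genes. Its implied level was 13.5 CPM in the parental line, 26.6 CPM in the AGO2 knockout, 24.8 CPM in the ANKRD52 knockout and 21.6 CPM in the double knockout. All 3 knockouts lay above the parental line, and the log2 fold change in the AGO2 knockout was 0.98 (SE 0.15, adjusted p = 3.37e-08), per the authors' deposited table. Its annotated transcript held 307 windows of 75 bases, the cycle number of the sequencing kit. Of these, 155 (50.5%) also occurred, on either strand, in transcripts of other genes, 130 of them in H2BFS. That transcript holds only the coding part, and how reads that match several genes were counted is not given, so the value of HIST1H2BK is uncertain to that extent. The share was 4.95% for HIST2H2BE, 1.68% for HIST1H2BD and 0.0% for HIST1H1C, HIST1H2AC and HIST3H2A.

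HIST2H2BE, an H2B gene of the cluster on chromosome 1, had a mean log2 CPM of 1.05, against a median of 5.08 over all genes. Its implied level was 1.12 CPM in the parental line, 2.91 CPM in the AGO2 knockout, 2.11 CPM in the ANKRD52 knockout and 2.13 CPM in the double knockout. The log2 fold change of 1.38 in the AGO2 knockout had a wide SE of 0.43 (adjusted p = 0.0302), per the authors' deposited table. HIST1H2BD, another core H2B gene, stood at 6.43 CPM in the parental line and at 12.1, 11.9 and 11.6 CPM in the AGO2, ANKRD52 and double knockouts. The 3 knockouts stood close together, but in the AGO2 knockout its log2 fold change of 0.91 (SE 0.31) was not called (adjusted p = 0.0568), per the authors' deposited table. The SE of HIST1H2BD was wider than that of 93.6% of the 500 genes nearest in mean expression. HIST3H2A, an H2A gene outside the large clusters, stood at 0.14 on the log2 scale (adjusted p = 0.823), per the authors' deposited table.

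Among the variant genes in the AGO2 knockout, log2 fold changes ran from -0.47 for the linker histone gene H1FX to 0.30 for H1F0, per the authors' deposited table. At an unadjusted p under 0.05 the table had 4 of 10, all below the parental level: H1FX, H2AFY2 (-0.36), H2AFZ (-0.26) and H3F3C (-0.23). On the lower side 10.1% of all genes passed that threshold. When the likelihood ratios were read against an F distribution (1 and 8 degrees of freedom), which is stricter, 0 histone genes and 0 of all genes were called in this comparison, and 8 histone genes had an unadjusted p under 0.05, as did 14.4% of all genes.

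**Figure D2:**
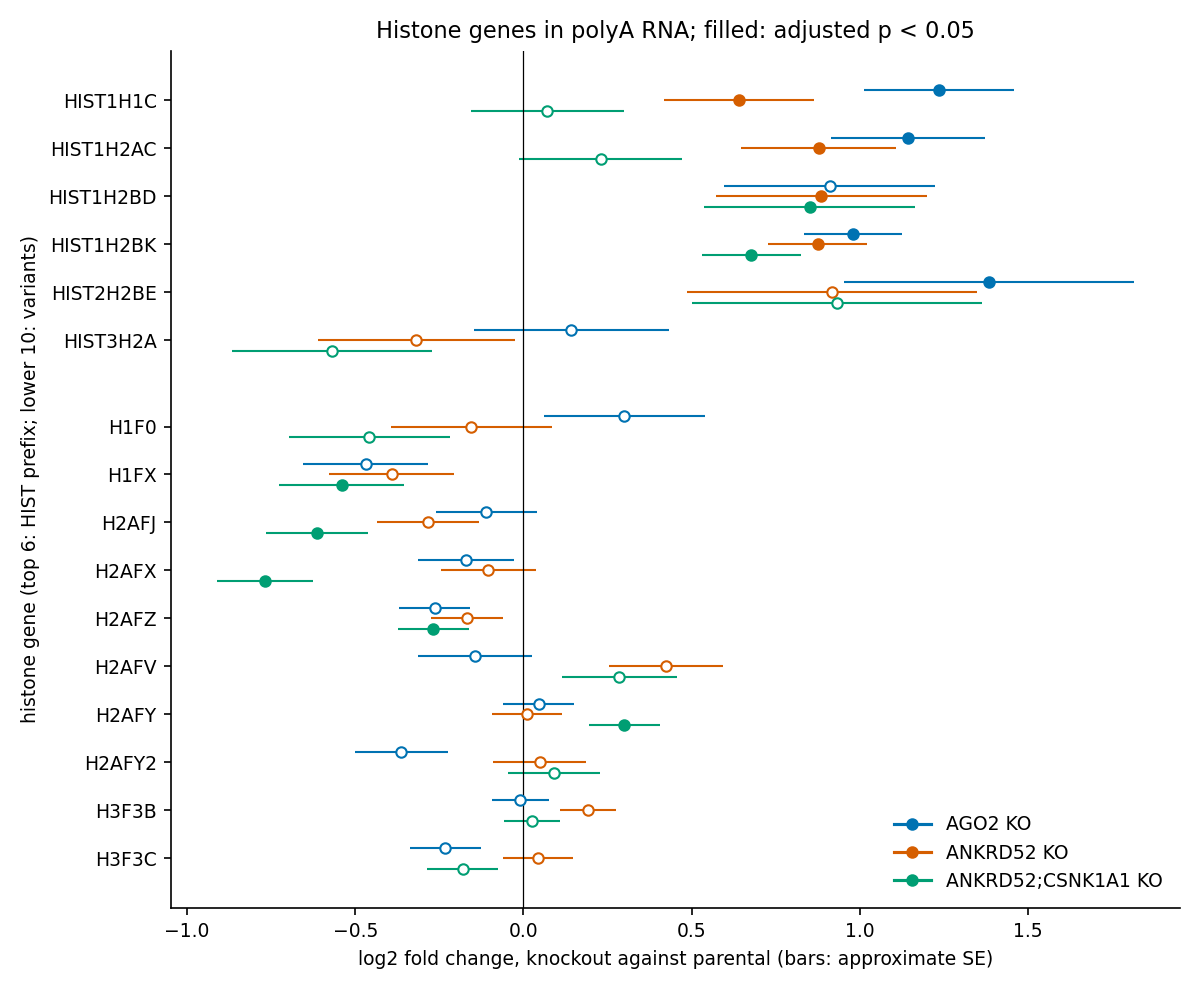
Log2 fold change of the 16 histone genes in each knockout against parental, with bars of 1 approximate SE and filled points for an adjusted p under 0.05. Of the 6 genes with the HIST prefix at the top, 4 are filled in the AGO2 knockout, 4 in that of ANKRD52 and 2 in the double knockout, all to the right of 0. Filled variant genes appear in the double knockout, 4 to the left and 1 to the right.

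In the ANKRD52 knockout 4 of 6 replication-dependent genes rose and 0 fell, while 0 of 10 variant genes were called by the authors' edgeR test. HIST1H2BK, HIST1H2BD and HIST1H2AC rose between 1.83-fold and 1.85-fold and HIST1H1C 1.56-fold, per the authors' deposited table. Among all genes there, 7.62% were called higher and 6.04% lower. The median log2 fold change was 0.88 over the replication-dependent genes, -0.05 over the variant genes and 0.00 over all genes.

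HIST1H2BK had a log2 fold change of 0.87 (SE 0.15, adjusted p = 4.79e-07), per the authors' deposited table. HIST1H2AC had 0.88 (SE 0.23, adjusted p = 0.00343) and HIST1H2BD 0.89 (SE 0.31, adjusted p = 0.0389), per the authors' deposited table. These 3 values differed by less than any of their SEs. HIST1H1C, at 0.64 (SE 0.22, adjusted p = 0.0352), had a smaller value, per the authors' deposited table. HIST2H2BE, at 0.92, was not called (SE 0.43, adjusted p = 0.146), per the authors' deposited table, and neither was HIST3H2A, at -0.32 (adjusted p = 0.529).

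The variant genes of the ANKRD52 knockout ran from -0.39 for H1FX to 0.42 for the H2A.Z gene H2AFV, per the authors' deposited table. H2AFV, whose protein replaces H2A at promoters, stood at 164 CPM in the parental line, 148 CPM in the AGO2 knockout, 220 CPM in the ANKRD52 knockout and 200 CPM in the double knockout (adjusted p = 0.0777 for the ANKRD52 knockout, per the authors' deposited table). The 2 groups with an ANKRD52 knockout were the higher ones. At an unadjusted p under 0.05 the table had 3 of 10 variant genes, H2AFV and the H3.3 gene H3F3B (0.19) above the parental level and H1FX below it. Of all genes 13.9% passed that threshold on the higher and 12.5% on the lower side. An adjusted p under 0.01 left 2 called histone genes, HIST1H2BK and HIST1H2AC, and the F distribution left 0 (5 at an unadjusted p under 0.05, as were 19.4% of all genes, and 3 called among all genes). The share of all genes called at 0.01 was not counted.

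**Figure D3:**
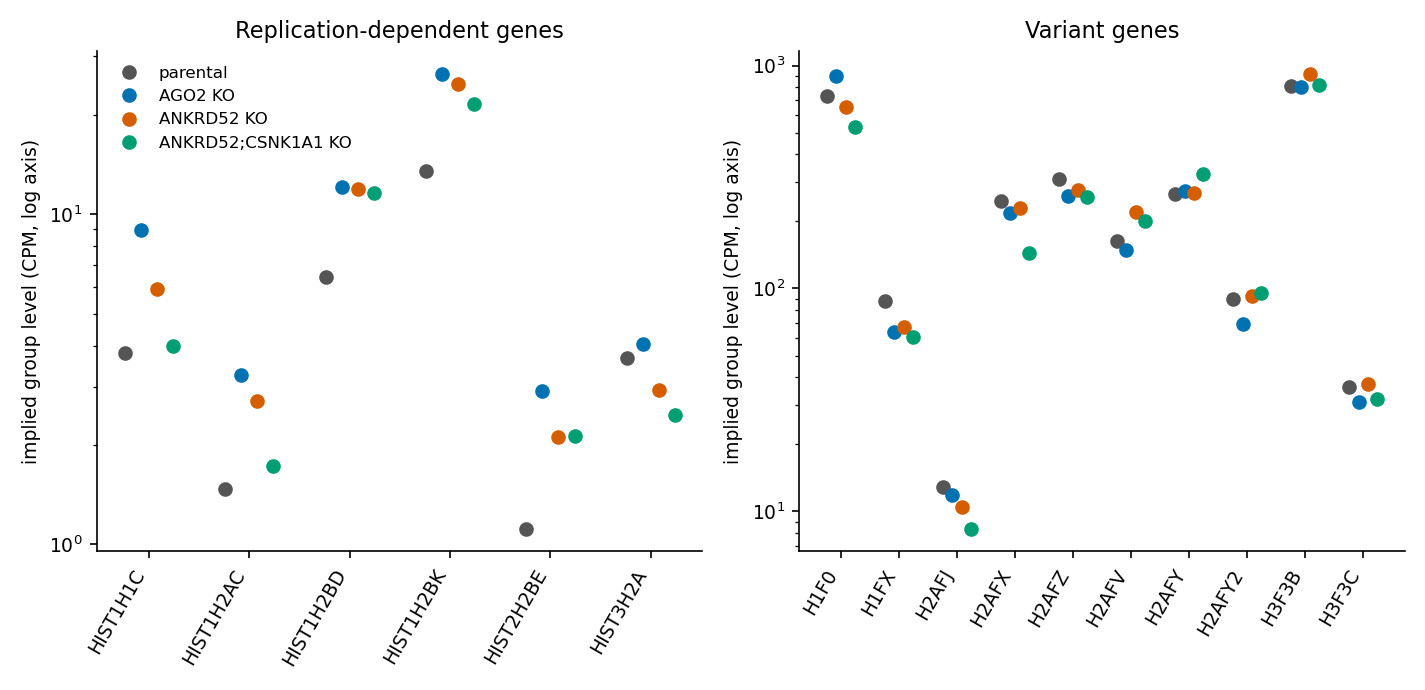
Implied group levels in CPM on a log axis, 1 point for each of the 4 groups, with the replication-dependent genes on the left and the variant genes on the right. HIST1H2BD and HIST1H2BK stand above the parental level in all 3 knockouts. HIST1H1C and HIST1H2AC are near it in the double knockout, at 3.99 and 1.73 CPM, and H2AFX is lowest there, at 144 CPM.

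In the double knockout 2 of 6 replication-dependent genes rose and 0 fell, and of 10 variant genes 1 rose and 4 fell. HIST1H2BD rose 1.80-fold and HIST1H2BK 1.6-fold, and the variant H2AFY, which encodes macroH2A1, rose 1.23-fold, per the authors' deposited table. H2AFX, H2AFJ, H1FX and H2AFZ fell, with log2 fold changes from -0.77 to -0.27, per the authors' deposited table. Over all genes in this comparison 22.9% were called higher and 20.1% lower, so 2 of 6 and 4 of 10 were read against a wide background. The median log2 fold change was 0.45 over the replication-dependent genes, -0.22 over the variant genes and 0.01 over all genes. Leaving out HIST1H2BD, which was not planned, gave 0.23 over the replication-dependent genes here. In the AGO2 and ANKRD52 knockouts the middle value without it was 1.14 (that of HIST1H2AC) and 0.87 (that of HIST1H2BK).

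HIST1H2BK had a log2 fold change of 0.68 (SE 0.15, adjusted p = 2.78e-05) and HIST1H2BD 0.85 (SE 0.31, adjusted p = 0.019), per the authors' deposited table. HIST2H2BE, at 0.93 (SE 0.43), was not called (adjusted p = 0.0672), per the authors' deposited table. HIST1H2AC at 0.23 (adjusted p = 0.463) and HIST1H1C at 0.07 (adjusted p = 0.826) were not called, per the authors' deposited table. HIST3H2A had -0.57 (SE 0.30, adjusted p = 0.108), per the authors' deposited table, with implied levels of 3.66 CPM in the parental line, 4.04 and 2.94 CPM in the AGO2 and ANKRD52 knockouts and 2.47 CPM in the double knockout.

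H2AFX encodes H2AX, the H2A variant that is phosphorylated at DNA breaks, and its message exists both with a stem-loop end and with a polyA tail. Its implied level was 246 CPM in the parental line, 219 CPM in the AGO2 knockout, 229 CPM in the ANKRD52 knockout and 144 CPM in the double knockout. The double knockout stood below the other 3 groups, with a log2 fold change of -0.77 (SE 0.14, adjusted p = 8.25e-07), per the authors' deposited table. H2AFJ encodes H2A.J, an H2A variant known to accumulate in senescent cells, and stood at 12.8, 11.9, 10.5 and 8.37 CPM in the parental line, the AGO2, the ANKRD52 and the double knockout. Its log2 fold change in the double knockout was -0.61 (SE 0.15, adjusted p = 0.000332), per the authors' deposited table.

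H1FX, a linker histone gene, stood at 88.1 CPM in the parental line and at 63.6, 67.1 and 60.5 CPM in the AGO2, ANKRD52 and double knockouts. All 3 knockouts lay below the parental level, and the double knockout was called at -0.54 (SE 0.19, adjusted p = 0.0116), per the authors' deposited table. H1F0, the linker histone H1.0 of differentiated cells, stood at 727 CPM in the parental line, 895 CPM in the AGO2 knockout, 654 CPM in the ANKRD52 knockout and 530 CPM in the double knockout. It was called in none of the 3 comparisons, and its log2 fold change in the double knockout was -0.46 (SE 0.24, adjusted p = 0.11), per the authors' deposited table. The SE of H1F0 was wider than that of 95.0% of genes of like expression.

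H2AFZ and H2AFV encode the closely related forms of H2A.Z. H2AFZ stood at 311 CPM in the parental line and at 259, 277 and 258 CPM in the AGO2, ANKRD52 and double knockouts, with a called log2 fold change of -0.27 (SE 0.11, adjusted p = 0.031) in the double knockout, per the authors' deposited table. H2AFV had 0.29 there (SE 0.17, adjusted p = 0.166), per the authors' deposited table. H2AFY stood at 266 CPM in the parental line, 275 and 268 CPM in the single knockouts and 328 CPM in the double knockout, where its log2 fold change was 0.30 (SE 0.11, adjusted p = 0.013), per the authors' deposited table. Its relative H2AFY2, the macroH2A2 gene, had 0.09 (adjusted p = 0.617), per the authors' deposited table. Of the 75-base windows of the longest H2AFY transcript, with 10982 bases, 29.4% also occurred in transcripts of C5orf66, on either strand. The strand of a match was not recorded. As the libraries were stranded, that share need not be a share of uncertain reads. The same limit applies to H1FX, with 14.0% of its windows in H1FX-AS1, and to H2AFZ, with 8.25% in AC097460.1.

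H3F3B encodes the replacement histone H3.3 and had a mean log2 CPM of 9.71. It stood at 807, 801, 921 and 821 CPM in the parental line, the AGO2, the ANKRD52 and the double knockout, and its log2 fold change in the double knockout was 0.03 (SE 0.08, adjusted p = 0.832), per the authors' deposited table. H3F3C, an intronless relative of H3F3B, had -0.18 (adjusted p = 0.158), per the authors' deposited table, and 8.95% of its windows also occurred in H3F3B. How many of all genes stayed called in the double knockout at an adjusted p under 0.01 was not counted. That threshold left 3 of the 7 called histone genes there, HIST1H2BK, H2AFX and H2AFJ. The F distribution left the same 3, and by it 3784 of all 12756 genes were called.

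**Figure D4:**
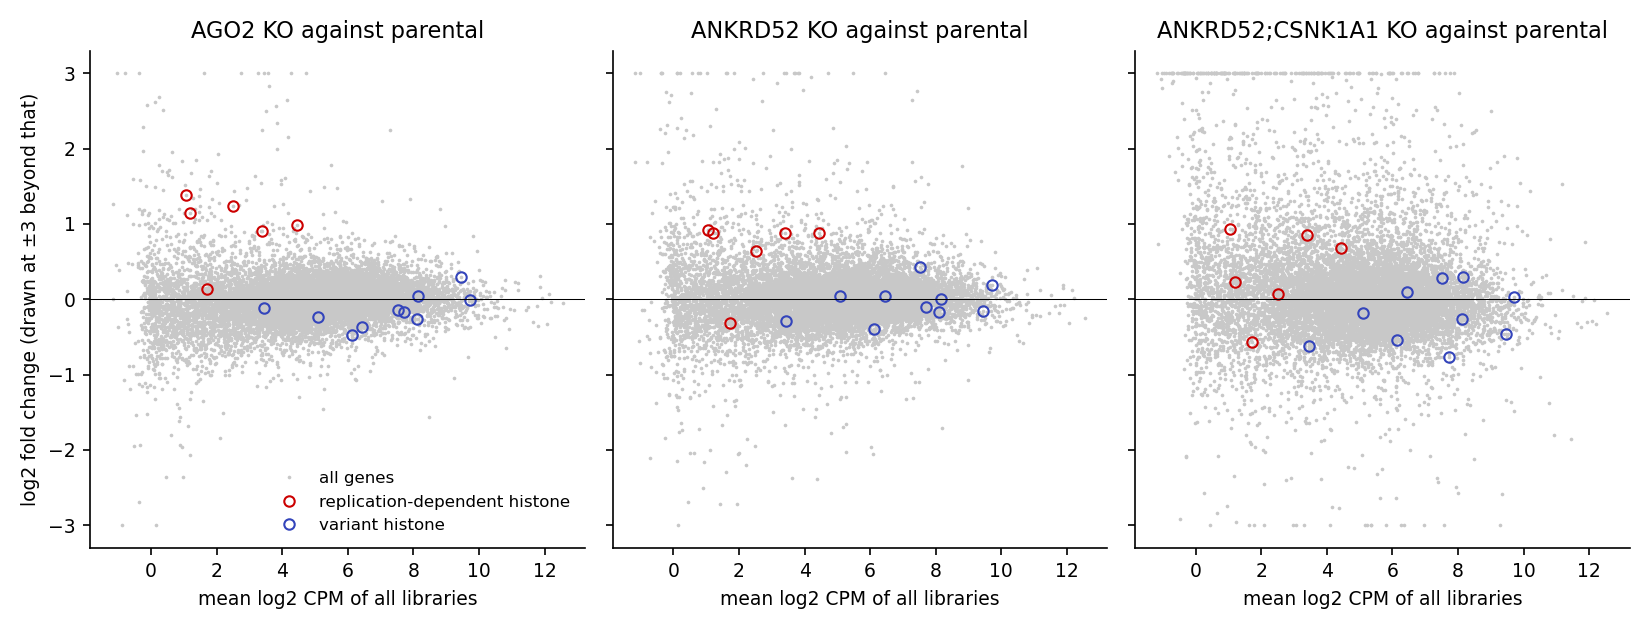
Log2 fold change against mean log2 CPM for all 12756 genes (grey) with the replication-dependent (red) and variant (blue) histone genes circled, 1 panel for each knockout. Values beyond ±3 are drawn at ±3. The red points, at a mean log2 CPM from 1.05 to 4.43, lie between 0.14 and 1.38 in the AGO2 knockout, and 5 of the 6 lie above 0 in each of the other panels. The blue points lie at a mean log2 CPM from 3.44 to 9.71.

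The double knockout was next set against the ANKRD52 knockout, from which it differs by label in CSNK1A1. ANKRD52 RNA also differed between these groups, by -0.69 (approximate adjusted p = 8.92e-06), and whether 1 line was derived from the other is not given, so the difference is between these lines and cannot be assigned to CSNK1A1. The parental level drops out of this difference of log2 fold changes, and the test is an approximate normal one, adjusted over the 11877 genes whose mean log2 CPM reached 1, a filter that all 16 histone genes passed. Of the replication-dependent genes 2 of 6 were lower and 0 higher, and of the variant genes 1 of 10 was lower and 1 higher. Over all genes 18.1% were called higher and 16.3% lower. HIST1H1C differed by -0.57 (SE 0.23, approximate adjusted p = 0.0357) and HIST1H2AC by -0.65 (SE 0.24, approximate adjusted p = 0.0224). H2AFX differed by -0.66 (SE 0.14, approximate adjusted p = 3.05e-05) and H2AFY by 0.29 (SE 0.11, approximate adjusted p = 0.021). The H2B genes HIST1H2BK (-0.20, SE 0.15), HIST1H2BD (-0.04, SE 0.31) and HIST2H2BE (0.01, SE 0.43) were not called. With the sum of both squared SEs as the variance only H2AFX was called. That sum keeps the variance of the shared parental libraries and is wider for every gene. The share of all genes called with it was not counted, here or in the 2 comparisons that follow.

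Set against the AGO2 knockout, a comparison added after the values were seen, 3 of 6 replication-dependent genes stood lower in the double knockout, with 0 higher, and 3 of 10 variant genes were lower and 3 higher. The background was 21.6% higher and 21.0% lower. ANKRD52 RNA also differed between these groups, by -1.50 (approximate adjusted p = 6.32e-25). HIST1H1C differed by -1.17 (SE 0.22, approximate adjusted p = 2.2e-06), HIST1H2AC by -0.91 (SE 0.24, approximate adjusted p = 0.000555) and HIST3H2A by -0.71 (SE 0.29, approximate adjusted p = 0.0377). H1F0 (-0.76), H2AFX (-0.60) and H2AFJ (-0.50) were lower, and H2AFY2 (0.45), H2AFV (0.43) and H2AFY (0.25) higher. The sum of both squared SEs left 3 of these 9: HIST1H1C, HIST1H2AC and H2AFX.

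Between the ANKRD52 and the AGO2 knockout, also added after the values were seen, 0 of 6 replication-dependent genes were called, and of the variant genes 2 were higher in the ANKRD52 knockout and 0 lower. The background was 5.52% higher and 3.91% lower. ANKRD52 RNA also differed between these groups, by -0.81 (approximate adjusted p = 1.41e-06). H2AFV differed by 0.57 (SE 0.17, approximate adjusted p = 0.0158) and H2AFY2 by 0.41 (SE 0.14, approximate adjusted p = 0.0362). H2AFY2 stood at 69.5 CPM in the AGO2 knockout and between 89.4 and 95.3 CPM in the other 3 groups. HIST1H1C, at -0.60 (SE 0.22, approximate adjusted p = 0.0671), was not called and was the only 1 of the 6 with an unadjusted p under 0.05, which 23.4% of all genes had. With the sum of both squared SEs 0 histone genes were called here.

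The genes that make, trim and destroy histone messages were taken as a list of 31, all with a row. In the AGO2 knockout 0 rose and 3 fell, in the ANKRD52 knockout 2 rose and 3 fell, and in the double knockout 3 rose and 9 fell (medians -0.05, -0.05 and 0.00). The shares of all genes called, here and for the lists that follow, were 3.38% higher and 2.72% lower, 7.62% and 6.04%, and 22.9% and 20.1%. SLBP, which binds the stem-loop, had log2 fold changes of 0.01 in the AGO2 knockout (adjusted p = 0.970) and -0.11 in the ANKRD52 knockout (adjusted p = 0.454) and was called at -0.33 in the double knockout (SE 0.09, adjusted p = 0.000664), per the authors' deposited tables. ERI1, the exonuclease that trims and degrades the stem-loop end, fell by 1.29 in the double knockout (SE 0.18, adjusted p = 1.7e-11), per the authors' deposited table. Its implied level was 174 CPM in the parental line, 222 and 213 CPM in the AGO2 and ANKRD52 knockouts and 71.2 CPM in the double knockout. The double knockout stood below the other 3 groups for ERI1.

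Factors that cut histone messages went both ways in the double knockout. The scaffold SYMPK (-0.43), the endonuclease CPSF3 (-0.23) and the U7 component LSM11 (-0.43) fell, per the authors' deposited table. The U7-associated ZNF473 (0.26, adjusted p = 0.0276) and CASP8AP2 (0.31, adjusted p = 0.0497) rose, while LSM10 (0.02) and CPSF2 (-0.17) were not called, per the authors' deposited table. These 4 were named after their values were seen. LSM4, a decay factor, fell in all 3 comparisons, by 0.43, 0.47 and 0.63, per the authors' deposited tables, and the Sm protein gene SNRPB by 0.30, 0.31 and 0.36. The octamer-binding factor POU2F1 rose in the double knockout (0.44, adjusted p = 0.000113), and the transcription factor YY1 fell there (-0.45) and in the ANKRD52 knockout (-0.35), per the authors' deposited tables. Cyclin E2 (CCNE2) and CDK2, which activate histone transcription through NPAT, rose in the ANKRD52 knockout (adjusted p = 0.00426 and 0.0257, log2 fold changes 0.56 and 0.25), per the authors' deposited table. NPAT (0.14, adjusted p = 0.353) and cyclin E1 (CCNE1, -0.05, adjusted p = 0.879), named after their values were seen, were not called there. In the AGO2 knockout CCNE2 (0.01, adjusted p = 0.983) and CDK2 (0.13, adjusted p = 0.396) were not called, per the authors' deposited tables. CPSF1 fell in the AGO2 and double knockouts (-0.61 and -0.58), and the other 55 genes within 1 Mb of it on chromosome 8 had medians of -0.51 and -0.25 there.

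Histone chaperones and deposition factors were a list of 26, of which 25 had a row. In the AGO2 knockout 0 rose and 1 fell, in the ANKRD52 knockout 1 rose and 0 fell, and in the double knockout 2 rose and 6 fell (medians -0.06, -0.01 and -0.07). The 6 falls among 25 stood near the 20.1% of all genes called lower. TONSL, which reads new histone H4 behind replication forks, fell by 0.72 in the AGO2 knockout (adjusted p = 2.74e-07), per the authors' deposited table. The other 55 genes within 1 Mb of TONSL on chromosome 8 had a median of -0.51 in that knockout, with 26 lower and 0 higher. ATRX, which deposits H3.3, rose in the ANKRD52 and double knockouts (0.38 and 0.41), and in the double knockout the H3-H4 chaperone ASF1A rose (0.53) and the importin IPO4 (-0.58) and the FACT subunit SSRP1 (-0.37) fell, per the authors' deposited tables.

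Genes of S phase and DNA replication, a list of 20 with CCNE2 shared with the list above, gave 0 rises and 4 falls in the AGO2 knockout, 1 and 3 in the ANKRD52 knockout, and 1 and 10 in the double knockout (medians -0.11, -0.14 and -0.22), beside 22.9% of all genes higher and 20.1% lower in the last. The licensing genes MCM2 (-0.35, -0.27 and -0.48) and CDT1 (-0.45, -0.37 and -0.36) fell in all 3 comparisons, per the authors' deposited tables. MCM5 fell in the AGO2 and double knockouts (-0.32 and -0.86) and MCM4 in the double knockout (-0.73), while the clamp gene PCNA rose there (0.33), per the authors' deposited tables. The replication-dependent histone genes thus had medians above 0 in each comparison where the S phase list had one below 0, and no test of that contrast was made.

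**Figure D5:**
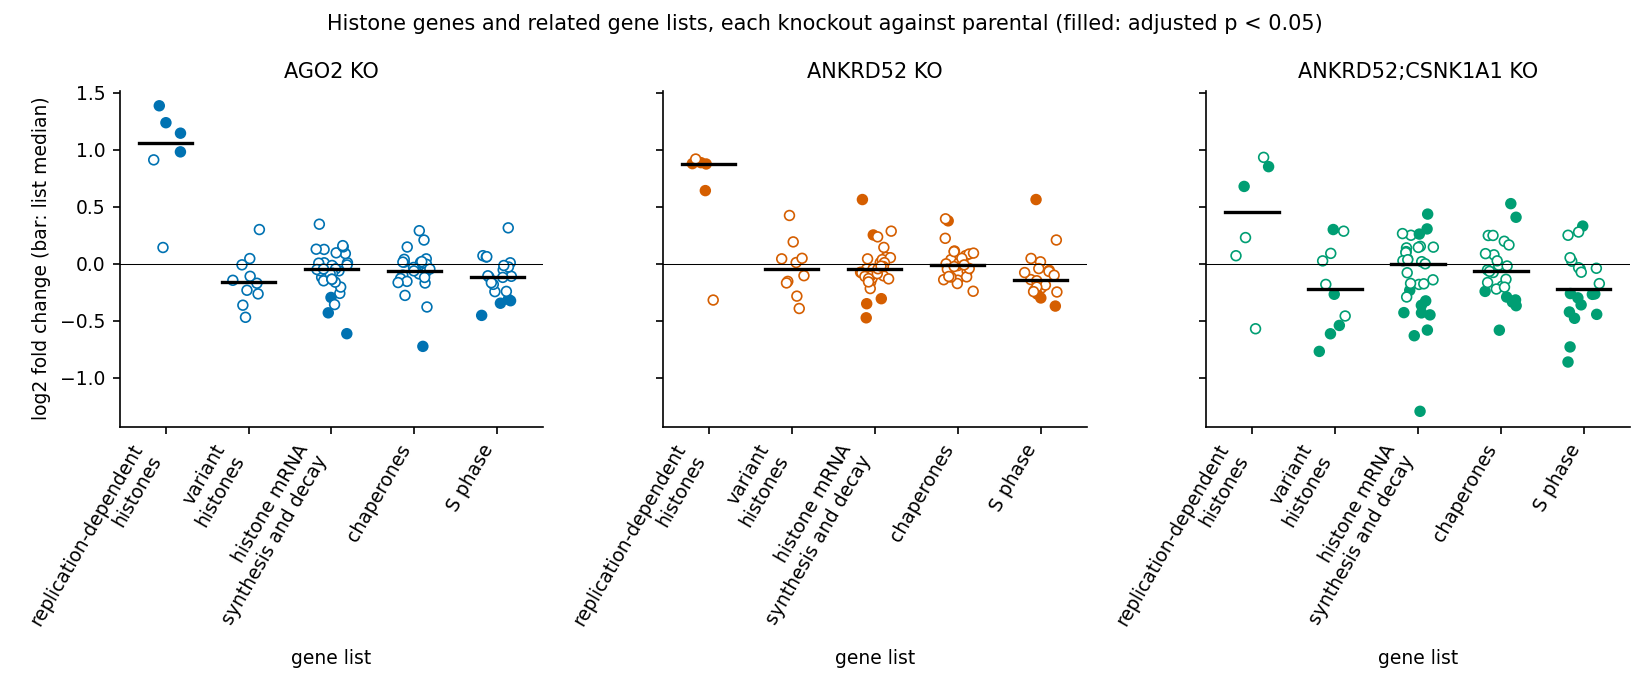
Log2 fold changes of the histone genes and of the lists of histone message synthesis and decay, chaperones and S phase, 1 panel for each knockout against parental. Points are genes, filled at an adjusted p under 0.05, and bars are list medians. The replication-dependent genes have medians of 1.06, 0.88 and 0.45, and the S phase list -0.11, -0.14 and -0.22.

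Genes other than histones within 1 Mb of the HIST1 members on chromosome 6 were compared after the values were seen. These 19 genes had medians of -0.16 in the AGO2 knockout, 0.08 in that of ANKRD52 and 0.18 in the double knockout. They gave 0 rises and 0 falls, 1 and 1, and 6 and 1, where all genes gave 3.38% and 2.72%, 7.62% and 6.04%, and 22.9% and 20.1%. Around HIST2H2BE on chromosome 1 the 21 neighbours had medians of 0.04, 0.04 and 0.01, with 1 rise and 0 falls, 5 and 1, and 5 and 2.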

How the data were processed

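Stranded libraries of polyA RNA from 12 HCT116 samples were run on a kit of 75 cycles, per the labels' protocols. TopHat2 2.0.12 with featureCounts 1.4.6, edgeR 3.8.6 and hg19 appear in the submitters' processing notes, and the step each served is not stated. Per the file headers, the authors deposited edgeR output for 12756 genes in each of 3 comparisons. Its columns are a log2 fold change with a log2 CPM averaged over libraries by the authors, the likelihood ratio as a deposited score, and deposited p-values with adjusted ones. It was checked that each p-value is the chi-square tail (1 degree of freedom) of its likelihood ratio and that adjustment was by Benjamini-Hochberg across all genes. The tables hold no value per library, so depth and the spread of single libraries are unknown, and the count test that the design provided for gave way to the deposited one.

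Standard errors, implied levels and the differences between knockouts were computed as the report says, taking as the variance of a difference the average of its squared standard errors. Sequences came from RefSeq (GRCh38.p14) and GENCODE release 29; the authors' build differs, so coordinates are those of GRCh38. Where RefSeq lists several starts, the first was used.

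The histone genes and the lists were chosen with earlier results of these data known. Named were all variant genes, all replication-dependent genes called in at least 1 comparison (HIST3H2A, called in none against parental, was added after its values were seen), and of the lists the genes with the smallest adjusted p, up to 12 and 5. Alternatives were other thresholds, filters, centring, variances and an F distribution. Python 3.11.15, numpy 2.4.6, pandas 2.3.3, scipy 1.17.1 and matplotlib 3.10.9 were used.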

Additional observations from a re-analysis of the deposited data

Results flagged for a closer look

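Between the double knockout and the ANKRD52 knockout 4 histone genes differed by the approximate test of the difference. The values were -0.57 for HIST1H1C, -0.65 for HIST1H2AC, -0.66 for H2AFX and 0.29 for H2AFY on the log2 scale. Of the 16 histone genes 1 was thus higher and 3 lower, beside 18.1% and 16.3% of all genes. The lower side stood near its share of all genes and the higher side below it. With the sum of both squared standard errors as the variance, which is wider for every gene, only H2AFX was called. HIST1H1C and HIST1H2AC had risen in the ANKRD52 knockout against parental and were not called in the double knockout. H2AFX and H2AFY were called against parental in the double knockout and not in the ANKRD52 knockout.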

How the results depend on the processing

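No paired analysis was possible because the tables hold no values per library, and for the same reason no replicate could be left out. The called histone genes numbered 4, 4 and 7 in the AGO2, ANKRD52 and double knockouts. By the F distribution they numbered 0, 0 and 3, where all genes gave 0, 3 and 3784. At an adjusted p under 0.01 the called histone genes numbered 3, 2 and 3, with no share of all genes counted at that threshold. Between the double and the ANKRD52 knockout 4 were called, 1 with the sum of squared standard errors and 1 at an adjusted p under 0.01. Between the double and the AGO2 knockout 9 were called, 3 with the sum. Between the ANKRD52 and the AGO2 knockout 2 were called, 0 with the sum and 0 at 0.01. The sum keeps the variance of the shared parental libraries, which drop out of the difference, so it is wider for every gene. For these differences the share of all genes called with the sum or at 0.01 was not counted. Centring and a filter on mean log2 CPM, or none, left every one of these counts of histone genes as it was. Centring turned the sign of 1 single-gene difference (SSRP1, between the ANKRD52 knockout and the AGO2 knockout), to 0.000226. Averaged by the mean, the replication-dependent genes had 0.97, 0.65 and 0.37. The depth of the libraries is unknown, so no limit of detection is given.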

Other observations

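CENPA, the centromeric H3 variant whose symbol falls outside the naming rule, had log2 fold changes of -0.38 in the AGO2 knockout (adjusted p = 0.0566), -0.24 in the ANKRD52 knockout (adjusted p = 0.22) and -0.05 in the double knockout (adjusted p = 0.764) in the authors' deposited tables. It was called in none of the 3.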
